A study of Rattus norvegicus with 13 samples.

Results

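The 10 genes described here belong to the circadian clock: Clock, Per1, Per2, Per3, Cry1, Cry2, Nr1d1, Nr1d2, Dbp and Tef. They were chosen by name from the platform's gene annotation, out of 14506 genes with a named probe, and each had 1 probe. Expression was profiled with 1 Affymetrix array for each of 13 female rats of the outbred Sprague Dawley strain, and the tissue was fat. The 7 control daughters had fathers that ate standard chow with 9% fat, and the 6 high-fat daughters had fathers that ate pellets with 43% fat. Mating with chow-fed females took place when the fathers were 15 weeks old. Daughters of both groups ate chow from weaning at 3 weeks until harvest at 14 weeks. The question was whether the diet of a father shows in clock gene levels in the fat of his daughters, and how these genes vary together from one daughter to the next. Daughters are named by their sample number. The labels do not name the fat depot, the time of day at which fat was taken, or which daughters shared a father or litter, so the p-values rest on the spread among these 13 daughters alone.

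The values are log2 RMA levels, on which a difference of 1 is a doubling. Over all probes they ran from 3.24 to 14.54, array medians lay between 7.66 and 7.72, and precision is limited by how many arrays there are. All 10 adipocyte marker genes were measured, with a mean level per array of 12.21 to 12.60. The 13 measured skeletal muscle genes had a mean level of 7.19 to 7.34 in 9 arrays and of 9.16 in high-fat 619, 11.80 in control 664, 11.97 in control 662 and 12.05 in high-fat 629. The SD of all values of an array ran from 1.78 in control 658 to 1.96, and it is given beside the results it moved with. In a piece of tissue, fewer cells of a type and less RNA per cell cannot be told apart.

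As background, the clock is a loop of gene regulation found in most mammalian cells. CLOCK pairs with BMAL1, or NPAS2 takes its place, and the pair switches on the Per and Cry genes through a DNA motif called the E-box, after which PER and CRY proteins inhibit the pair. The pair also switches on Nr1d1 and Nr1d2, whose proteins REV-ERB alpha and beta repress Bmal1, Npas2, Nfil3 and Cry1 through ROR response elements, and Dbp and Tef, which activate genes through the D-box, a motif that the repressor NFIL3 also binds. In rodent fat, as in liver, Nr1d1 and Dbp peak at a time of day nearly opposite to that of Bmal1, Npas2 and Nfil3.

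The start regions of 4 genes are shown as examples of the letters of these motifs. They come from the RefSeq promoter table of build GRCr8, which gives 250 bases before to 50 bases after each gene start. The Nr1d1 and Tef windows are shown because each holds an E-box, the Per2 window because it holds both a D-box and an E-box variant, and the Bmal1 window because it holds a ROR response element. Each is written 5′ to 3′ on the strand of its gene, with the motif in capitals.
Nr1d1, chr10:84229405-84229704, minus strand: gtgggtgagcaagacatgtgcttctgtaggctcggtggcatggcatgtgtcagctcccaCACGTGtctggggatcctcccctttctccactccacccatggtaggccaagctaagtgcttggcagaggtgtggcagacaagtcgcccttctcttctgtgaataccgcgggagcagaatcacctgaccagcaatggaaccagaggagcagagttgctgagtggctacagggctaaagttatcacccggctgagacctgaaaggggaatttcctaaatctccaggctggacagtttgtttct
Tef, chr7:115206577-115206876, plus strand: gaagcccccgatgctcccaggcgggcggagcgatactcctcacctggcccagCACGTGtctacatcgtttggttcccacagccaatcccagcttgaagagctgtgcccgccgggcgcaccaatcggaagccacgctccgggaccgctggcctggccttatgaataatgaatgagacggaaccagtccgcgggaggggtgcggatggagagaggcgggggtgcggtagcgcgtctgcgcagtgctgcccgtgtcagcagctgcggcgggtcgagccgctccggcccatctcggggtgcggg
Per2, chr9:99496944-99497243, minus strand: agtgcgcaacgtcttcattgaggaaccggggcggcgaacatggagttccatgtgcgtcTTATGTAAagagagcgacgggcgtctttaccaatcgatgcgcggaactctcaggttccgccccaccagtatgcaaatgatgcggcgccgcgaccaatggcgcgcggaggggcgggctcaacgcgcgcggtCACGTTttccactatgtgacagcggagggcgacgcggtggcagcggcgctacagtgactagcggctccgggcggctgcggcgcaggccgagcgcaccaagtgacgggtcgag
Bmal1, chr1:176766078-176766377, plus strand: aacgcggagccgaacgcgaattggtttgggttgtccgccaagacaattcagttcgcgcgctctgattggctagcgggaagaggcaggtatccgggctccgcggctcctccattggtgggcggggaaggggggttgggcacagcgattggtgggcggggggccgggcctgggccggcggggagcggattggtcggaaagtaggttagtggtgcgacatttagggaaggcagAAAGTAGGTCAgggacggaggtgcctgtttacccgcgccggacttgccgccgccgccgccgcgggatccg

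A window was found for 9 of the 10 genes, all but Cry1, which could not be searched. With alternative starts of Clock and Nr1d1 there were 11 windows. The E-box CACGTG, which reads the same on both strands, lay 191 bases before one Nr1d1 start and 198 bases before the Tef start, and 6.42% of all 33469 windows held it. The E-box variant CACGTT, searched on both strands, was in windows of Per2, Cry2 and Nr1d1, against 4.83% of all windows. The D-box TTATGTAA, searched on both strands, lay 192 bases before the Per2 start, and 0.893% of all windows held it. The ROR response element, searched by its consensus on both strands, was in no window of these 9 genes. It lay 20 bases before the Bmal1 start, was not in the windows of Npas2 and Nfil3, and was in 0.356% of all windows. The D-box variant TTACGTAA was in no window of the 9 genes either, against 0.12% of all windows. Thus 4 of the 9 genes had any of these motifs, and Clock, Per1, Per3, Nr1d2 and Dbp had none. In Bhlhe41, a clock repressor gene described below, an E-box lay 48 bases before the start. These matches describe letters in short windows and not binding.

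Most of the 10 genes varied widely among the daughters, and 6 of them (Per3, Cry2, Nr1d1, Nr1d2, Dbp and Tef) were high or low together. These 6 were put together after their correlations had been seen. Cry1 had a negative r with each of them, which passed the test with Nr1d1, Per1 and Per2 had no pair with them that passed the test, and Clock was the steadiest of the 10. The SD over the 13 arrays was above the median of all genes, 0.15 log2 units, for 9 of the 10 genes, and 5 of them (Nr1d1, Per3, Dbp, Nr1d2 and Per1) were at percentile 94.6 or higher. The median SD of the 10 genes was 0.32.

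Nr1d1, which encodes the repressor REV-ERB alpha, had the widest range of the 10. Its level ran from 9.37 in control 658 to 11.79 in control 622, a range of 2.42 log2 units or 5.33-fold. In control daughters the lowest, median and highest levels were 9.37, 10.72 and 11.79, and in high-fat daughters 10.17, 11.10 and 11.45. Both ends of the range were thus control daughters, and the high-fat values lay between them. Nr1d2, for the related repressor REV-ERB beta, was lowest, middle and highest at 8.99, 9.78 and 10.19 in controls and at 9.36, 9.95 and 10.22 in high-fat daughters. The lowest Nr1d2 value was again in control 658 and the highest in high-fat 624.

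Dbp, an activator that acts through the D-box and a commonly used readout of clock phase, was lowest, middle and highest at 10.05, 10.35 and 11.42 in controls and at 10.14, 10.65 and 11.51 in high-fat daughters. Control 622 and high-fat 624 stood highest, 1 from each group, and control 656 and high-fat 629 stood lowest. Tef, which encodes a related D-box activator, had 8.34, 8.61 and 8.94 in controls and 8.52, 8.74 and 9.09 in high-fat daughters, with the ends of its range in control 656 and high-fat 624. Per3, a period gene, ran 3.48-fold, with 8.35, 9.11 and 9.80 in controls and 8.54, 9.47 and 10.15 in high-fat daughters. Cry2, a cryptochrome repressor, ran 1.74-fold, from 9.50 to 10.16 in controls and from 9.81 to 10.30 in high-fat daughters. For both genes the lowest daughter was control 658 and the highest was high-fat 624.

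**Figure D1:**
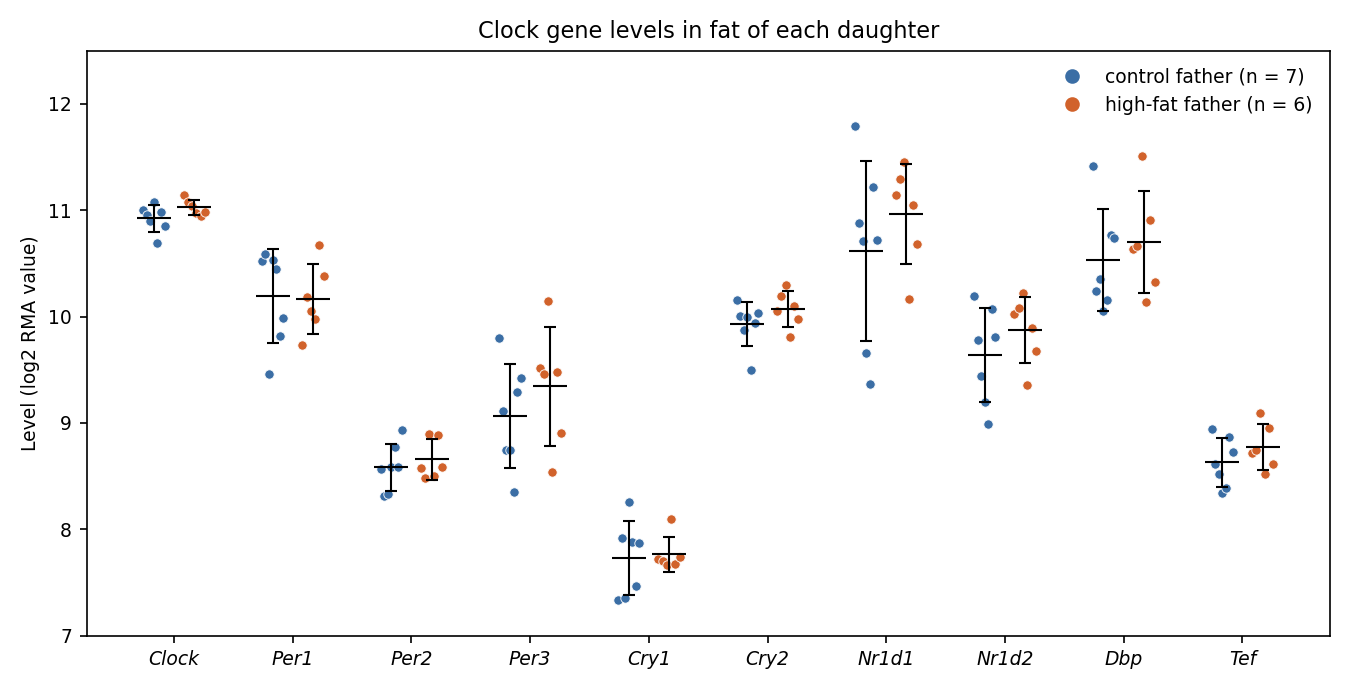
Log2 RMA level (vertical axis) of the 10 clock genes in each daughter, with 1 point per array, blue for 7 control and orange for 6 high-fat daughters; the long bar is the group mean and the error bar 1 SD. The groups overlap for each of the 10 genes, and Nr1d1 spans the widest range, from 9.37 to 11.79.

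Correlations were computed for all 45 pairs of the 10 genes over the 13 arrays, and 17 pairs passed an adjusted p of 0.05, 16 positive and 1 negative. Each p came from 100000 permutations and was adjusted over the 45 pairs. Of all pairs among the 14506 genes, 6.82% had an r at least as high as the lowest one called here, 0.71, and 5.12% had an r at least as low as its negative. With Spearman's rho 18 pairs passed, 16 of them the same. The genes were chosen with results of these data known, so these p-values describe these arrays and are not independent evidence.

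All 15 pairs among Per3, Cry2, Nr1d1, Nr1d2, Dbp and Tef passed, with Pearson's r of 0.71 to 0.97 and Spearman's rho of 0.71 to 0.98. Without the 2 arrays farthest from the median of the first gene, r was 0.58 to 0.94. Within control daughters r was 0.57 to 0.97 and within high-fat daughters 0.80 to 1.0. Among the 7 daughters numbered 619 to 631 it was 0.84 to 0.97, and among the 6 numbered 656 to 664 it was 0.53 to 0.99. The r of every one of the 15 pairs was thus positive in each group of fathers and in each range of numbers, although 13 of them passed within the lower range and 2 within the higher one.

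The closest pair was Nr1d1 and Nr1d2, with r = 0.97 and rho = 0.98 (permutation p = 1.0e-05 for each, the smallest that the permutations can give; adjusted p = 9.0e-05 and 3.0e-04), and r was 0.93 without controls 656 and 658. The D-box activators Dbp and Tef had r = 0.94 and rho = 0.94 (permutation p = 1.0e-05 and 2.0e-05, adjusted p = 9.0e-05 and 3.0e-04). Their r was also 0.94 without control 622 and high-fat 624, the highest in Dbp, and was 0.97 and 0.98 in the lower and the higher number range. Per3 and Dbp had r = 0.92 and rho = 0.88 (permutation p = 1.0e-05 and 1.7e-04, adjusted p = 9.0e-05 and 8.1e-04), with r = 0.89 without control 658 and high-fat 624 and 0.92 and 0.91 within the ranges. The loosest of the 15 was Cry2 with Dbp, at r = 0.71 and rho = 0.71 (permutation p = 0.00623 and 0.00884, adjusted p = 0.0183 and 0.0234). It was 0.65 without control 658 and high-fat 624, 0.85 and 0.53 within the ranges, and it missed the threshold without high-fat 624 (r = 0.61). Cry2 with Nr1d1 (r = 0.79) missed it without control 658 (r = 0.64).

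The spread of values of the whole array moved with some of these genes. The array SD had r = 0.75 with Cry2, 0.62 with Nr1d2, 0.58 with Per3, 0.55 with Nr1d1, 0.41 with Tef and 0.38 with Dbp, as a description over 13 arrays. With the array SD taken out of each gene, all 15 pairs still passed, at r of 0.69 to 0.95. Without the 3 arrays of smallest SD, controls 658 and 631 and high-fat 660, 12 of the 15 passed, at r of 0.66 to 0.98. The mean of the skeletal muscle list had r of -0.08 with Dbp, and with it taken out all 15 passed. The mean of the adipocyte list, which ran from 12.21 to 12.36 in controls and from 12.21 to 12.60 in high-fat daughters, had r of 0.64 with Dbp and 0.77 with Per3, and its part in the co-variation was not tested. The mean of the brown and beige fat list, at 7.03 to 8.50 in controls and 6.93 to 8.72 in high-fat daughters, had r of -0.36 with Dbp and -0.52 with Per3. Ucp1, the defining gene of brown fat, had r of -0.54 with Cry2 and -0.51 with Per3, and stood at 9.28 in control 658, 9.76 in control 662, 10.96 in high-fat 663 and 11.02 in high-fat 629 against 7.4 or lower in the other arrays. The mean of the T cell list, at 7.32 to 8.0 in controls and 7.30 to 7.65 in high-fat daughters, had r of 0.43 with Dbp and 0.50 with Nr1d1. The part of these lists was not tested. The part of the time of day of harvest was not tested either.

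**Figure D2:**
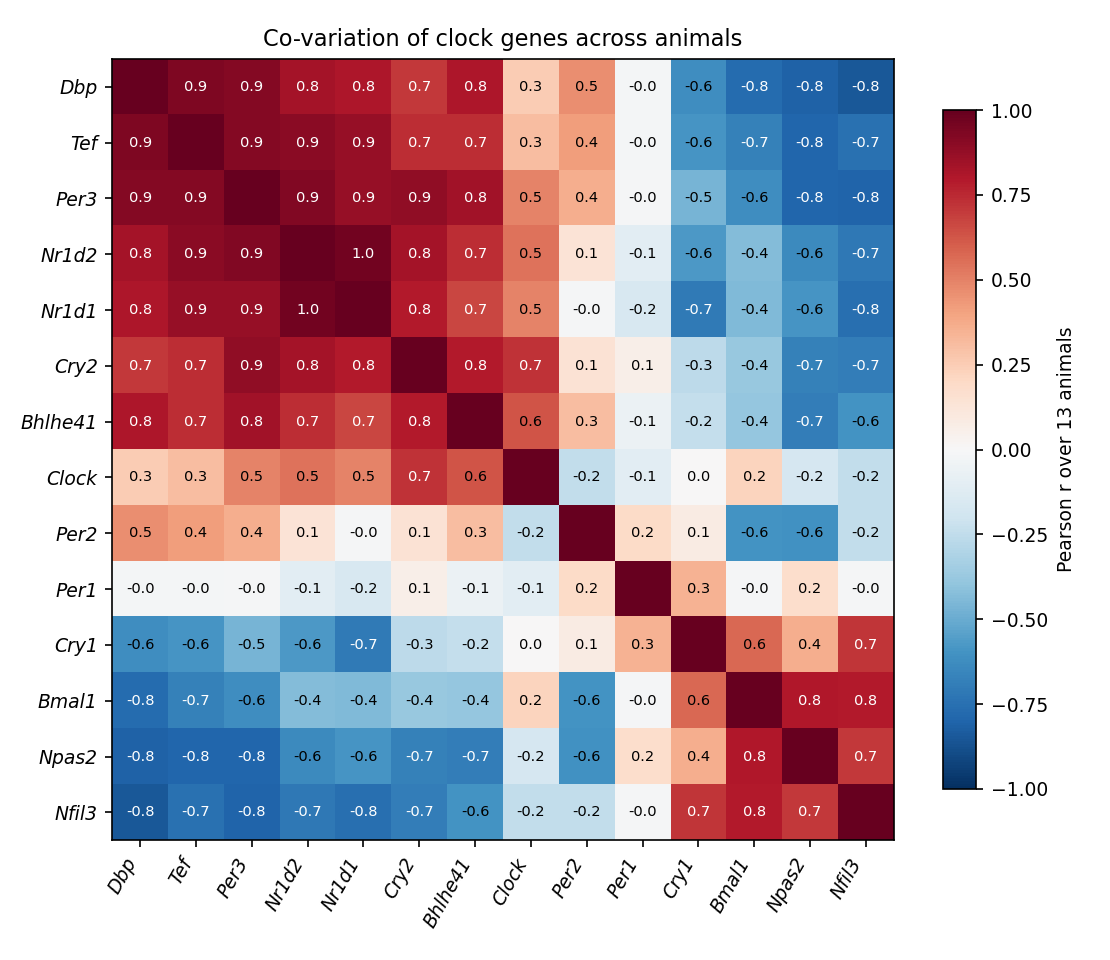
Pearson's r over 13 animals for each pair among the 10 clock genes and Bhlhe41, Bmal1, Npas2 and Nfil3; red is positive, blue negative, and the printed values have 1 decimal. Dbp, Tef, Per3, Nr1d2, Nr1d1 and Cry2 form a red square with r of 0.71 to 0.97, and Bmal1, Npas2 and Nfil3 are blue against Dbp at -0.77, -0.81 and -0.84.

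Cry1, a cryptochrome repressor and in mouse a target of the REV-ERB proteins, had its highest and lowest daughters near the opposite ends of this order. Its lowest, median and highest levels were 7.34, 7.87 and 8.26 in controls and 7.66, 7.71 and 8.10 in high-fat daughters. The highest value was in control 656, the daughter lowest in Dbp and Tef, and the lowest in control 622, the daughter highest in Nr1d1. Control 631 was nearly as low in Cry1, at 7.35, but stood at 10.71 in Nr1d1, near the control median of 10.72. Cry1 and Nr1d1 had r = -0.71 and rho = -0.73 (permutation p = 0.00649 and 0.00687, adjusted p = 0.0183 and 0.0193), the negative pair that passed. The value was -0.49 without controls 622 and 656, so the size of the relation rests on those daughters, and it was -0.62 and -0.78 in the lower and the higher number range. Leaving out control 622 alone gave r of -0.64 and control 656 alone -0.61, and both missed the threshold.

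With Dbp, Cry1 had r = -0.62 (permutation p = 0.0239, adjusted p = 0.0597) and rho = -0.81 (permutation p = 0.00149, adjusted p = 0.00479). The r was -0.38 without controls 622 and 656, and -0.54 and -0.74 in the number ranges. With the other genes of the 6 apart from Nr1d1, r was -0.60 for Tef, -0.58 for Nr1d2, -0.47 for Per3 and -0.27 for Cry2, and none of these passed. By rho, Nr1d2 passed as well (rho = -0.69, permutation p = 0.0123, adjusted p = 0.0307). With the array SD taken out, Cry1 had r between -0.88 and -0.44 with the 6 genes, and 4 of those pairs passed.

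Per2, a period gene, varied less, with 8.31, 8.59 and 8.93 in controls and 8.48, 8.59 and 8.90 in high-fat daughters. Its highest values were in control 664, high-fat 624 and high-fat 660. Over all 13 arrays r with the other 9 genes was between -0.25 and 0.46, and 0 pairs passed (smallest permutation adjusted p = 0.19). Within high-fat daughters Per2 had r of 0.87 with Tef and 0.81 with Dbp, and within controls 0.05 and 0.18. Among daughters numbered 619 to 631, 4 high-fat and 3 control, r was 0.85 with Tef and 0.79 with Dbp. Among those numbered 656 to 664 it was 0.35 and 0.51. With the mean of each number range taken out of each gene, Per2 had r of 0.7 with Dbp (rank 97). The difference in these correlations between the groups or between the number ranges was not tested.

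Clock, which encodes the activator that pairs with BMAL1, had an SD of 0.12, at percentile 26 of all genes. Its levels were 10.69, 10.96 and 11.08 in controls and 10.95, 11.01 and 11.14 in high-fat daughters, and control 658 stood lowest. The array SD had r = 0.88 with Clock. Clock and Cry2 had r = 0.72 (permutation p = 0.00994, adjusted p = 0.0263) and rho = 0.51 (permutation p = 0.074, adjusted p = 0.159). Without control 658 and high-fat 619 r was 0.42, given with no test. This pair did not pass without control 658 alone (r = 0.37), after a second quantile normalization (r = 0.22) or with the array SD taken out (r = 0.21). Without high-fat 620 alone it narrowly missed the threshold (r = 0.69, permutation adjusted p = 0.054). In the lower and the higher number range r was 0.56 and 0.75. Clock had r = 0.23 with Bmal1, the gene of its partner, and -0.15 with Npas2.

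The genes most like Clock over the 13 arrays were Ctbp2 (r = 0.97), Mib1 (0.96), Kmt2e (0.95), Ubap1 (0.95) and Pias2 (0.95). Those least like it were Cntn6 (-0.96), Tas2r110 (-0.95), Cenpi (-0.95), Or8b59 (-0.92) and Or12e13b (-0.92). None of these 10 is a gene of the clock lists. The array SD had r of 0.84 to 0.91 with the first 5 and of -0.94 to -0.86 with the last 5, and its part was not tested.

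The genes whose pattern was most like Dbp included others of the 10. Among the 14505 other genes ranked by r with Dbp over the 13 arrays, Tef was at rank 1 (r = 0.94), Per3 at rank 3 (0.92), Nr1d2 at rank 5 (0.83), Nr1d1 at rank 8 (0.81) and Cry2 at rank 99 (0.71). The other genes among the top 5 were RT1-T24-1, a class I histocompatibility gene, with r of 0.93, and Mrpl14, for a protein of the mitochondrial ribosome, with 0.84. At the other end, the lowest 5 were Nfil3 (-0.84), Npas2 (-0.81), Pex5l (-0.79), Lrrc43 (-0.77) and Bmal1 (-0.77). Thus 3 of the 5 genes most opposed to Dbp were known clock genes outside the 10. Ranked by r with Cry2 instead, Per3 was at rank 285, Nr1d2 at 839, Nr1d1 at 1409, Tef at 2242 and Dbp at 2738. Many other genes thus had a higher r with Cry2 than these clock genes had.

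Nfil3, the D-box repressor, was lowest at 8.02 in control 622 and in high-fat 624, the daughters with the highest Dbp, and highest at 9.14 in high-fat 629. Npas2, the stand-in for CLOCK, ran from 9.19 in high-fat 624 to 10.59 in control 658. Bmal1, the partner of CLOCK and a known target of REV-ERB repression, ran from 8.38 in high-fat 624 to 9.77 in high-fat 629. High-fat 624 and 629 thus stood at opposite ends for Bmal1 although both had high-fat fathers.

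With the array SD taken out, Bmal1 was the gene most opposed to Dbp (r = -0.92), Nfil3 was at rank 5 from the bottom and Npas2 at rank 20. Without control 622 and high-fat 624, Npas2 was at rank 10 from the bottom (r = -0.82), Nfil3 at rank 106 (-0.67) and Bmal1 at rank 187 (-0.61), while Tef and Per3 stayed at ranks 1 and 3 from the top. Without the 4 arrays with most muscle signal the ranks from the bottom were 1 for Nfil3, 13 for Npas2 and 25 for Bmal1. Against Nr1d1 the r was -0.76 for Nfil3 (rank 43 from the bottom), -0.59 for Npas2 (rank 570) and -0.44 for Bmal1 (rank 2243). Cry1 had r of 0.71 with Nfil3 and 0.58 with Bmal1. Bmal2, for a relative of BMAL1, had r of 0.45 with Dbp (rank 2209 from the top), opposite in sign to Bmal1.

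**Figure D3:**
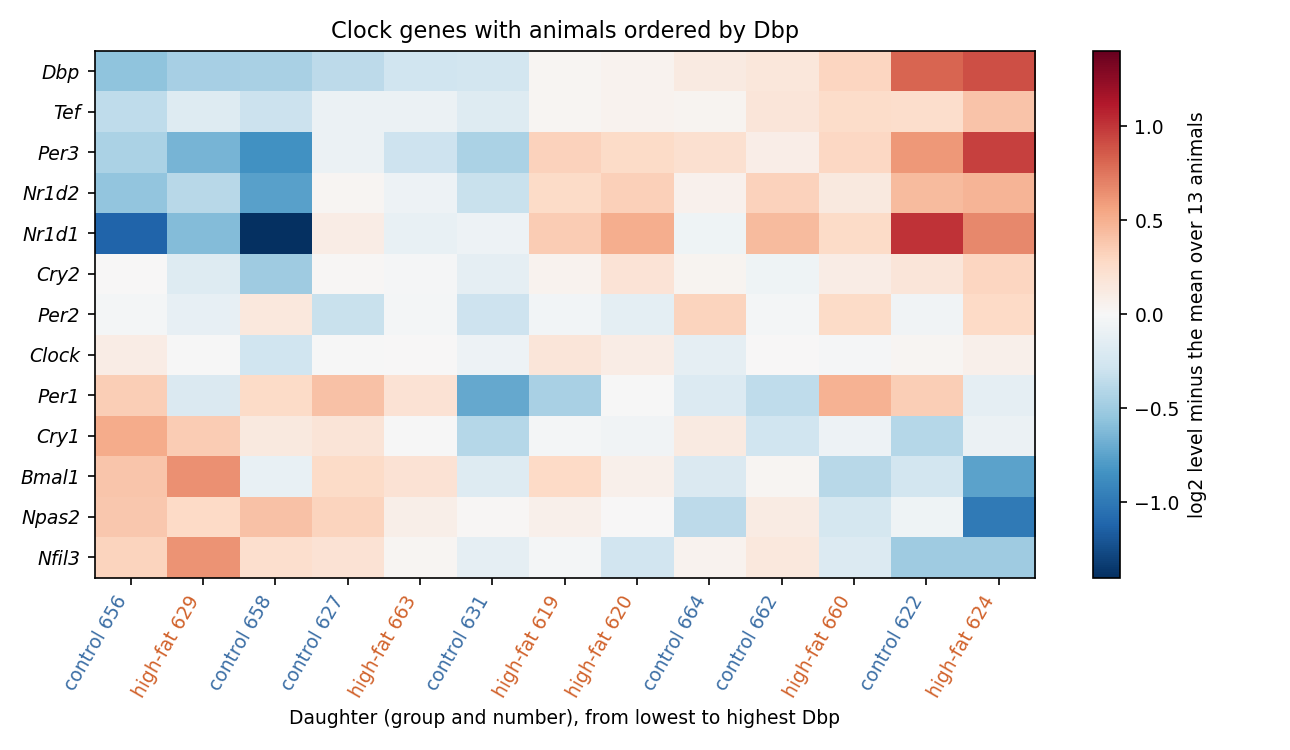
Log2 level minus the mean over 13 animals (colour) for the 10 clock genes and Bmal1, Npas2 and Nfil3, with daughters ordered from lowest to highest Dbp and names in blue for control and orange for high-fat fathers. From left to right Tef, Per3, Nr1d2 and Nr1d1 go from blue to red while Bmal1, Npas2 and Nfil3 go from red to blue, and control and high-fat daughters are mixed along the axis.

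Of 9 further outputs and repressors of the clock, 7 were measured, and 0 passed limma's test between the groups of fathers. Bhlhe41, which encodes the repressor DEC2, followed Dbp (r = 0.81, rank 9) and ran from 6.67 in control 658 to 8.01 in high-fat 624. Its r with the array SD was 0.78, and with the array SD taken out its r with Dbp was 0.89 (rank 4). Without the 2 daughters highest in Dbp, Bhlhe41 had r of 0.46 with Dbp (rank 846). Its relative Bhlhe40, for DEC1, had r of 0.20 with Dbp. Nampt, for the enzyme that limits NAD synthesis by salvage, had -0.55 and Timeless 0.35. Wee1 had 0.12 and Usp2 -0.23 with Dbp. With Nr1d1, Usp2 had r of -0.34, and of -0.71 without the 4 arrays with most muscle signal. Hlf and Ciart were not among the named genes.

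Per1, a period gene that glucocorticoid hormones are also known to induce directly, had no pair among the 10 genes that passed. Its levels were 9.46, 10.45 and 10.59 in controls and 9.73, 10.12 and 10.67 in high-fat daughters, with control 631 lowest and high-fat 660 highest, a range of 2.31-fold. With the other 9 genes r was between -0.16 and 0.35, and 0 of the 9 pairs passed (smallest permutation adjusted p = 0.4). High-fat 624, the highest in Dbp, had a Per1 level of 10.05, while control 656, the lowest in Dbp, had 10.53.

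Per1 was higher in daughters in which known glucocorticoid response genes were higher. Of the 10 measured genes of that list, 8 had an r of at least 0.5 with Per1, against 2.90% of all genes, and their median r was 0.63 against 0.04 for all genes. The highest were Cdkn1a, for a cell cycle inhibitor (r = 0.72, rank 29 of 14505), Dusp1, for a phosphatase of MAP kinases (0.71, rank 36), Tsc22d3, for the glucocorticoid-induced leucine zipper (0.69, rank 43), and Fkbp5, for a co-chaperone of the glucocorticoid receptor (0.68, rank 50). Fkbp5 was 8.37 in control 631, the lowest in Per1, and 9.87 in high-fat 660, the highest in Per1. Pdk4 (0.03) and Cebpd (0.37) were the 2 below 0.5.

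With Dbp the same 10 genes had r between -0.52 and 0.23. Under the 5 other settings tried, 7 to 9 of the 10 reached 0.5 with Per1, where 3.48% to 8.0% of all genes did. None of these settings left out control 631 or high-fat 660, the daughters lowest and highest in Per1. How far the r values rest on those daughters was not tested. Of 16 measured immediate early genes, which many stimuli are known to induce within minutes, 0 had an r of at least 0.5 with Per1. Of all genes 2.90% did, and a count of 0 among 16 is near that share. The r of the 16 ran from -0.43 (Myc) to 0.44 (Fos), with Fosl2 at 0.42 and Atf3 at 0.40. The mean of the muscle list had r = -0.47 with Per1, and 9 of the 10 glucocorticoid response genes reached 0.5 without the 4 arrays with most muscle signal, against 7.6% of all genes. These correlations are descriptions over the same 13 arrays, and hormone levels are not given in the labels.

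**Figure D4:**
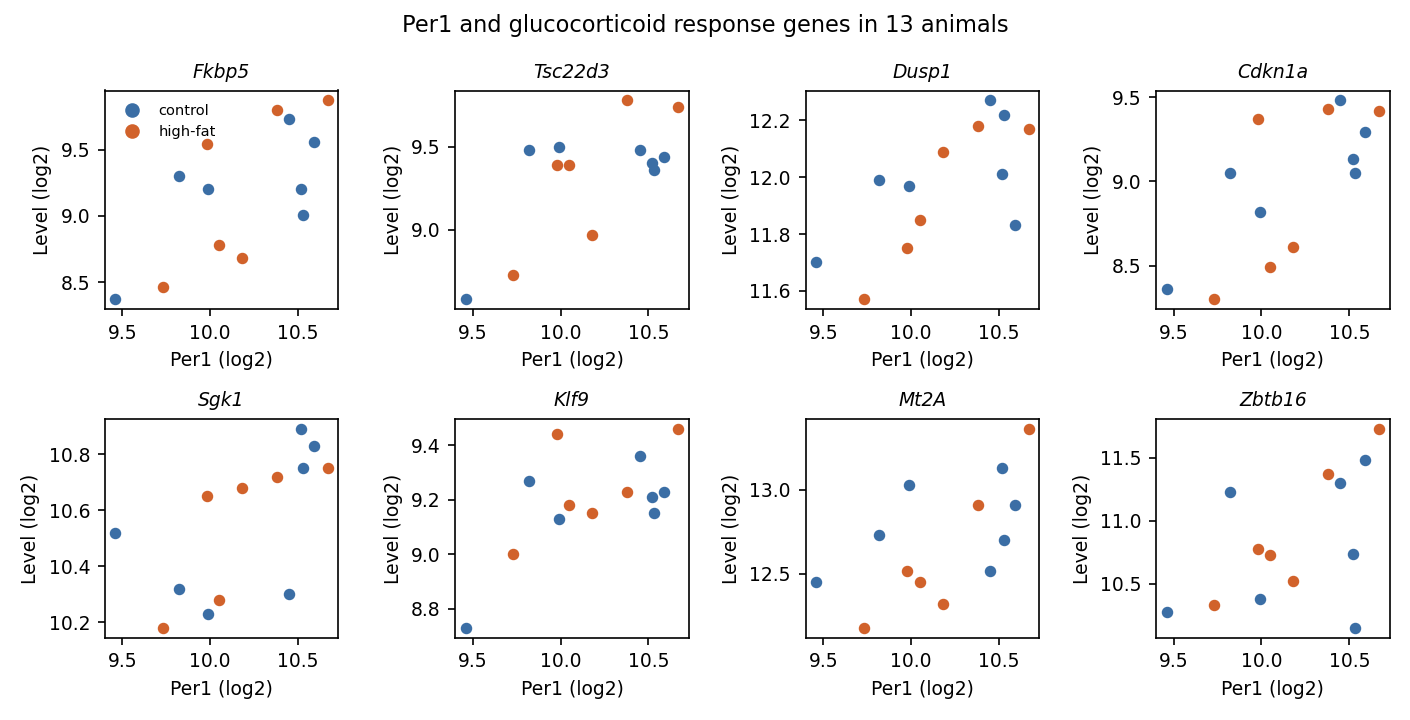
Log2 level of 8 glucocorticoid response genes (vertical axes) against that of Per1 (horizontal axes) in 13 daughters, blue for control and orange for high-fat fathers. Of the 10 genes measured, the 8 shown are those with an r of at least 0.5 with Per1, at 0.53 to 0.72. Pdk4 (0.03) and Cebpd (0.37) are not shown. Control 631, at a Per1 level of 9.46, is at or near the bottom in most panels.

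Between the groups of fathers, none of the 10 clock genes passed the test of a difference. In limma, 0 of the 10 passed an adjusted p of 0.05, as did 0 of all 14506 genes (0%), and 0 of the 10 had an unadjusted p under 0.05, which 1155 genes or 7.96% of all had. The smallest adjusted p among the 10 was 0.529, for Clock, and the groups overlapped for each of the 10. The high-fat mean was the higher one for 9 of the 10 genes, with a median difference of 0.14 log2 units, while 58% of all genes were higher and their median difference was 0.03. Among the 7253 genes above the middle mean level, which hold 9 of the 10 clock genes, 84.4% were higher with a median difference of 0.09, and 8 of the 9 clock genes were. The share of higher clock genes was thus close to that of genes of like level.

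The repressor Nr1d1 had the widest gap, at 10.62 ± 0.85 (SD, n = 7) for control and 10.96 ± 0.47 (SD, n = 6) for high-fat fathers. The difference, high-fat minus control, was 0.34 ± 0.34 (SE; adjusted p = 0.637 in limma). It was 0.13 without control 658 and 0.53 without control 622, and it was -0.12 within numbers 619 to 631 and 0.62 within 656 to 664. Per3 had 9.07 ± 0.49 and 9.34 ± 0.56, a difference of 0.28 ± 0.26 (limma adjusted p = 0.613). Nr1d2 had 9.64 ± 0.44 and 9.87 ± 0.31, a difference of 0.23 ± 0.19 (limma adjusted p = 0.584).

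For the output genes, Dbp had 10.53 ± 0.48 and 10.70 ± 0.48, a difference of 0.17 ± 0.24, which was 0.00 without high-fat 624 and 0.31 without control 622. Tef differed by 0.14 ± 0.11, Cry2 by 0.14 ± 0.10 and Clock by 0.10 ± 0.06. Per2 differed by 0.07 ± 0.11, Cry1 by 0.04 ± 0.14 and Per1 by -0.03 ± 0.20, and limma's adjusted p was 0.529 or higher for each of these genes. For Cry1 and Per1 the sign changed between the number ranges, with 0.26 and -0.17 for Cry1 and -0.21 and 0.33 for Per1.

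With the array SD as a covariate, the differences of the 10 genes lay between 0.01 and 0.12, with 0.01 for Nr1d1, 0.02 for Dbp and 0.03 for Per3. Without the 4 arrays with most muscle signal they were 0.63 for Nr1d1, 0.55 for Per3, 0.45 for Nr1d2 and 0.41 for Dbp, and 0 genes passed in that fit as well.

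**Figure D5:**
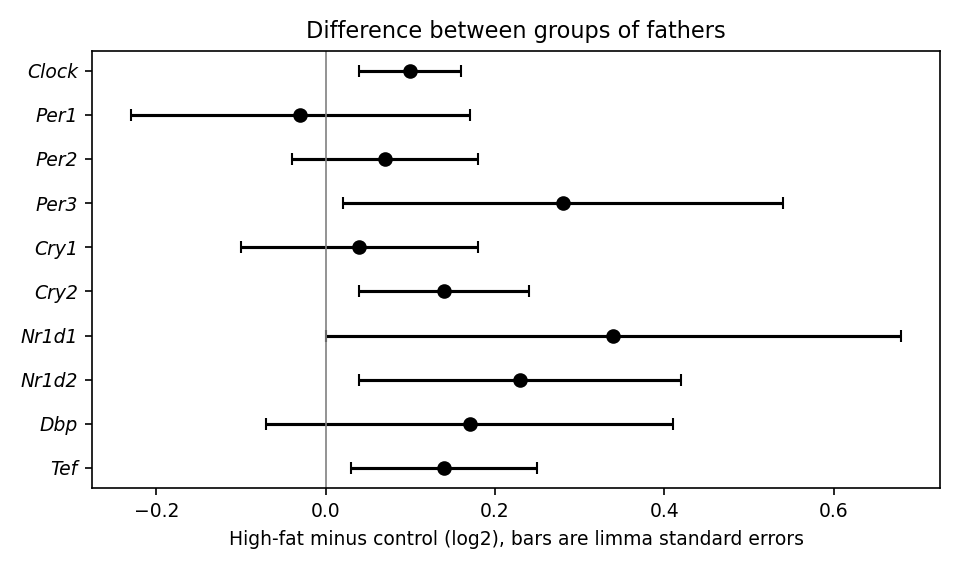
Difference in mean log2 level, high-fat minus control (horizontal axis), for the 10 clock genes, with bars of 1 standard error from limma; the vertical line marks 0. Nr1d1 has the largest difference, 0.34, with a standard error of the same size.

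Other genes of the pathway did not pass either. Bmal1 differed by 0.02 ± 0.19, Npas2 by -0.25 ± 0.18, Nfil3 by -0.10 ± 0.16 and Bhlhe41 by 0.25 ± 0.17, and limma's adjusted p was 0.537 or higher for each. All 7 measured kinases and ubiquitin ligases that act on PER and CRY had a higher mean in high-fat daughters, with a median difference of 0.08 and 0 called, close to the 84.4% higher and the median of 0.09 among all genes above the middle mean level. Csnk1a1, for a casein kinase, had 0.14 ± 0.06 (unadjusted p = 0.0424, adjusted p = 0.529 in limma). Their r with Clock was 0.41 to 0.85, at ranks 518 to 6404 of 14505 genes, and the array SD had r of 0.41 to 0.91 with them. With Dbp their r was 0.21 to 0.61, highest for Csnk1a1 (0.61), Btrc (0.56), Csnk1e (0.38) and Gsk3b (0.37).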

How the data were processed

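Total RNA from fat was labelled with biotin and hybridised to Affymetrix arrays, per the labels' protocols. The authors deposited log2 values for 29214 probes on 13 arrays, made with RMA and Partek, per the submitters' processing notes. Software versions, filters and build: not given in the sources used here. RMA pulls arrays toward a common distribution, and dim probes were not filtered. The platform annotation lists 15633 of the probes, 15310 with 1 gene symbol, 323 with several (not used), and 13581 are unnamed here. The brightest probe was kept for 527 genes with several, which left 14506 genes.

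The 2 groups were set against each other in limma 3.58.1 with R 4.3.3 (lmFit, then eBayes), two-sided, with no covariate and Benjamini-Hochberg adjustment over all genes. Correlations over 13 arrays used 100000 two-sided permutations in Python 3.11.15 with numpy 2.4.6 and scipy 1.17.1, adjusted over 45 pairs. Correlations with other genes are descriptions. The steps were tested on simulated data. The gene lists and the 10 genes were chosen with earlier results of these data known. Named were all 10 genes, in each clock list the 4 with the largest absolute r with Dbp, fixed core clock genes, and the 5 most and least like Dbp and Clock. The rest of the measured outputs and repressors, Usp2 and Wee1, were named as well. Alternatives were other normalizations, probe rules, variance models, covariates (number range, array SD, muscle level) and left-out arrays. Ranks under other settings were added after seeing the data.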

Additional observations from a re-analysis of the deposited data

Results flagged for a closer look

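Of 30 groups looked at (15 clock genes in 2 groups of daughters), 2 held a single array far from the others, and chance gives about 1 in 20 groups. Cry1 was at 8.10 in high-fat 629, while the other high-fat daughters lay between 7.66 and 7.74. That daughter had the lowest Dbp and the highest Bmal1 and Nfil3 of the high-fat group and the highest muscle signal of all arrays, and the part of muscle was not tested. Without it the difference in Cry1, high-fat minus control, was -0.03. Bhlhe41 was at 8.01 in high-fat 624, while the other high-fat daughters lay between 7.11 and 7.44. High-fat 624 also had the highest Dbp, Tef and Per3 and the lowest Bmal1 and Npas2 of the 13.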

How the results depend on the processing

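No gene passed limma's test under any alternative tried. Of the differences of the 10 genes under alternatives, 250 kept their direction and 19 turned, all of them in Per1, Cry1 or Nr1d1, and none passed in either direction. Per1, at -0.03, was 0.03 with the number range and 0.03 with the array SD as a covariate, 0.33 within numbers 656 to 664, 0.01 when the 4 muscle-rich arrays were left out, and -0.15 to 0.06 with 1 array left out. Cry1, at 0.04, was -0.00 with arrays centred on their medians, -0.05 with array weights, -0.17 within 656 to 664, -0.06 without the 4 muscle arrays, and -0.03 to 0.13 with 1 array left out. Nr1d1 was -0.12 within 619 to 631. The cause was not tested. Pairs that passed numbered 17, and 15 to 21 with 1 array left out; within 656 to 664 only 2 passed, on 6 arrays. The filter on dim genes removes Cry1 and gives it no value. No paired analysis was possible because the groups share no replicate numbers. No scanner files were used, so signal over background was not assessed.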

Other observations

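Chosen after their values were seen, the 5 genes most like Per1 over the 13 arrays were Nfkbia (r = 0.90), for an inhibitor of NF-kappa-B that glucocorticoids are known to induce, Map3k6 (0.87), Ndrg4 (0.87), Klf13 (0.87) and Slc10a6 (0.86). Their r with the array SD lay between -0.27 and 0.06. The cell cycle kinase gene Wee1, known as a clock output in mouse liver, had r of 0.61 with Per1 and 0.63 with Per2, and 0.12 with Dbp. Timeless had r of 0.74 with Per1. Of the 7 measured outputs and repressors, only these 2 reached an r of 0.5 with Per1, and the median was -0.06. Of all genes 2.90% reached it. Wee1 and Timeless were both lowest in control 631, the daughter lowest in Per1.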
